A study of Homo sapiens with 9 samples.

Results

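The genes described here encode the nuclear subunits of the respiratory chain and ATP synthase, with cytochrome c and the assembly factors and isoforms that carry the same name stems. They are the 101 genes of the count table whose GENCODE release 29 type is protein coding and whose symbol begins with NDUF, UQCR, ATP5 or COX4 to COX8, or is SDHA, SDHB, SDHC, SDHD, CYC1 or CYCS, of 60675 genes in all. RNA came from HCC827, an established human lung adenocarcinoma line with an activating EGFR mutation. The cells stably carried a non-silencing control hairpin (the control group, NS), hairpin G1 against CBX5 or hairpin G7 against CBX5, with 3 libraries in each of the 3 groups and serum-containing DMEM in all of them. CBX5 encodes HP1 alpha, a chromatin protein that binds methylated histone H3. The comparisons ask which of these genes differ in messenger RNA level when CBX5 is lowered, and whether both hairpins, which share the 3 control libraries, give like values.

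Complexes I and II pass electrons from NADH and succinate to ubiquinone, complex III passes them on to cytochrome c, and complex IV reduces oxygen. Complexes I, III and IV pump protons across the inner mitochondrial membrane, and complex V, the ATP synthase, uses that gradient to make ATP. Complexes I, III, IV and V mix subunits from the nuclear genome with a few from mitochondrial DNA, while complex II and cytochrome c are wholly nuclear. The nuclear subunits are made in the cytosol and imported, and assembly factors join them to the mitochondrial ones.

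Total counts per library ran from 12701561 to 22372353. CPM below means the count per 1000000 counts of a TMM-scaled library, a log2 fold change comes from the edgeR fit to all 9 libraries with its standard error after ±, and a gene was called, or is said to have risen or fallen, at a Benjamini-Hochberg adjusted p under 0.05 in edgeR's quasi-likelihood test over 13264 genes. CBX5 held 369.7, 377 and 361 CPM in the control libraries, 142, 142 and 143 with G1 and 204, 204 and 201 with G7, so it was lower in every hairpin library, with log2 fold changes of -1.38 ± 0.039 and -0.86 ± 0.038. G7 replicate 3 stood apart from its group, in that its counts differed from those of G7 replicates 1 and 2 by chi-square values of 24.9 and 19.3 for each degree of freedom, beside 1.5 between replicates 1 and 2, and with the highest mitochondrially encoded share of the counts, 19.82% against 13.37% to 17.72% elsewhere. The summed level of 5 epithelial markers was 8730 to 9570 CPM in control, 12600 to 12800 with G1 and 10400 to 11100 with G7. Most of it came from KRT8, KRT18 and KRT19, with means of 4106, 2711 and 1640 CPM in control. EPCAM averaged 297 CPM in control, 361 with G1 and 311 with G7, and CDH1 351, 385 and 344. The 4 endothelial markers summed to 84.2 to 92.8 CPM in control, 71.2 to 76.9 with G1 and 85.8 to 92.5 with G7. Most of that sum was PECAM1, with means of 73.4 CPM in control, 55.7 with G1 and 73.4 with G7. CDH5 went the other way with G1, at 14.0, 17.6 and 14.8 CPM, and VWF and KDR added little. Fibroblast and leukocyte markers summed to at most 15.9 and 8.21 CPM. The 5 lung adenocarcinoma markers summed to at most 1.21 CPM, with 3 of them, NKX2-1, NAPSA and SFTA3, listed at 0. Genes that cells generally use were listed at 0 as well, as described below. The 3 markers are therefore given only as listed, and the reason for their zeros was not tested. The part of the epithelial level in the results below was not tested, and in bulk RNA fewer cells of a type and less RNA per cell cannot be told apart.

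Of the 101 genes, 78 had enough counts to be tested and 23 did not. The untested ones include 17 listed at 0 in all 9 libraries and 3 with 1 or 2 counts in all, NDUFC2, ATP5MF and NDUFA11. A count of 0 allows up to 3 counts, which is 0.227 CPM in the shallowest library, for counting error alone. Among the 17 are NDUFA7, NDUFA9, NDUFB8, NDUFV2, SDHD, UQCR11, COX8A, ATP5MC1, ATP5PD and ATP5PO, which encode subunits that respiring cells generally use, so these are given only as listed at 0. The others at 0 are the isoforms or paralogs COX4I2, COX6A2, COX7B2, COX8C and ATP5MGL and the readthrough genes ATP5MF-PTCD1 and NDUFC2-KCTD14. Exons of another gene on the same strand overlapped 13 of the 20 genes with at most 2 counts and 13 of the 78 tested ones. The low-count genes COX7A1, NDUFA13 and NDUFA4L2 had 31, 54 and 69 counts in all and were not tested either. NDUFA13, NDUFC2, ATP5MF and NDUFA11 also encode subunits in general use, and exons of another gene on the same strand overlapped each of them. Their low counts are given only as listed.

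With G1, 61 of the 78 tested genes rose, 1 fell and 16 were not called, in a comparison in which 59.1% of all 13264 genes were called (30.4% higher and 28.7% lower). The median log2 fold change of the 78 was 0.40, against -0.01 over all genes tested. With G7, 37 rose, 1 fell and 40 were not called, where 22.7% of all genes were called (13.1% higher and 9.64% lower), and the median was 0.20 against 0.01. In every G1 library 60 of the 78 lay above every control library (32.5% of all genes did so) and 2 lay below (31.6%), and in every G7 library 42 lay above (19.3%) and 1 below (15.9%). Called rises with G1 ran from 0.18 (NDUFS8) to 1.07 (CYCS) on the log2 scale, and the next largest was 0.88 (NDUFAF4).

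The difference between the hairpins was tested directly in the same fit, as G1 minus G7, in which the control level cancels. By that test 46 of the 78 were higher with G1 than with G7, 1 was lower and 31 were not called, where 44.9% of all genes were called (23.3% higher and 21.6% lower). The median of that difference was 0.19, against -0.01 over all genes. Every G1 library lay above every G7 library in 46 of the 78 (27.0% of all genes) and below in 3 (26.6%). In 35 of the 78, all 3 G1 libraries lay above all 3 G7 libraries, which lay above all 3 control libraries, an order that 11.5% of all genes showed. Summed over the tested genes without NDUFV3, which varied too widely to be summed, the level was 5820 ± 154 CPM (SD, n = 3) in control, 6637 ± 253 with G7 and 7673 ± 281 with G1. When G7 replicate 3 was left out, 46 genes were higher and 2 lower with G7 (14.6% and 10.1% of all genes). Against a 1.2-fold change instead of no change, edgeR's glmTreat called 41 of the 78 higher with G1, where 15.1% of all genes were higher. With G7 it called 0 of the 78, where 1.27% of all genes were higher, and 9 of the 78 had an unadjusted p under 0.05.

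**Figure D1:**
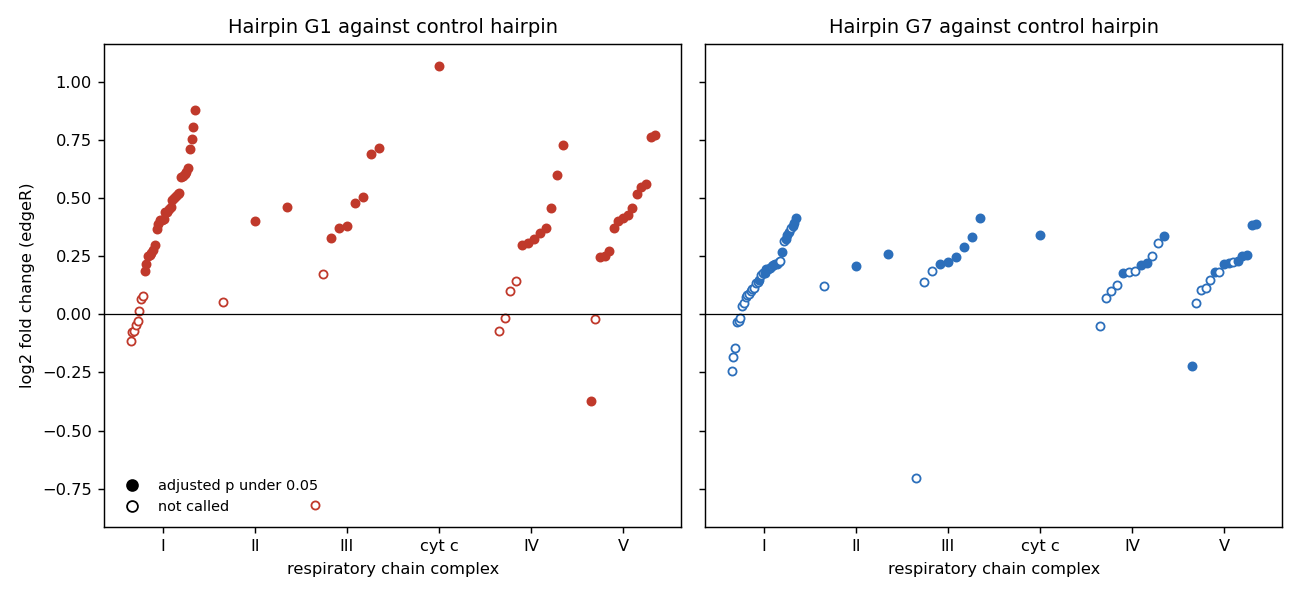
Log2 fold change of each of the 78 tested genes against the control hairpin, by respiratory chain complex, for G1 (left) and G7 (right), with filled points for an edgeR adjusted p under 0.05 and open points for the rest. Cytochrome c lies highest with G1 at 1.07, and most filled points lie above 0 in both panels, with 1 filled point below 0 in complex V.

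The promoter stretches below are examples of what sequence features lay upstream of genes that rose, and with them the start region of CYCS, the gene with the largest rise. The examples were not drawn by a rule and do not stand for all genes that rose. RefSeq promoter windows of GRCh38.p14, from 250 bases before the start to 50 after it, were matched to 80 of the 101 genes. For 6 of them the window lay more than 2000 bases from the outer end of the GENCODE gene, at another start. Each stretch is the 250 bases before the start, written 5′ to 3′ on the gene's own strand, with motif matches in capitals. The motifs searched on both strands were the NRF1 motif (GCGCA, any base, then GCGC), the ETS motif CCGGAAGT, the YY1 motif AAGATGGCG, the GC box GGGCGG and the CRE motif TGACGTCA. None of these motifs contains another. The windows are chr5:218070-218319 (plus strand) for SDHA, chr3:120596086-120596335 (plus) for NDUFB4, chr19:29213152-29213401 (minus) for UQCRFS1, chr21:25735055-25735304 (minus) for ATP5PF and chr7:25125261-25125510 (minus) for CYCS.
SDHA: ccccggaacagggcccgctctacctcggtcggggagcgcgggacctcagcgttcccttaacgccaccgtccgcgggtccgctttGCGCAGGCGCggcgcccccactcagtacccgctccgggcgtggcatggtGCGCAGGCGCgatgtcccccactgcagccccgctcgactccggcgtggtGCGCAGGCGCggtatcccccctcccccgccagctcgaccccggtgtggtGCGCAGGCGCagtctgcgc
NDUFB4: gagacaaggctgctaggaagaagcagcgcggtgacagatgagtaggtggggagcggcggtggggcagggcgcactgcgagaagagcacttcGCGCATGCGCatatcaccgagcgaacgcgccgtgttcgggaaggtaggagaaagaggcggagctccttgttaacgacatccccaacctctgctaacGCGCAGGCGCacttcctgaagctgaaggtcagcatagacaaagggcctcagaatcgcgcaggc
UQCRFS1: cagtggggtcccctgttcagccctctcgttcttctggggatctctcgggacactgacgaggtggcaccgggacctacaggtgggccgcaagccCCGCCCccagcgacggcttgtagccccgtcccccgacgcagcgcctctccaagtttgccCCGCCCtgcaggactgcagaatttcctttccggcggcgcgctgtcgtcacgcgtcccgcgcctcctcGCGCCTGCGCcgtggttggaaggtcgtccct
ATP5PF: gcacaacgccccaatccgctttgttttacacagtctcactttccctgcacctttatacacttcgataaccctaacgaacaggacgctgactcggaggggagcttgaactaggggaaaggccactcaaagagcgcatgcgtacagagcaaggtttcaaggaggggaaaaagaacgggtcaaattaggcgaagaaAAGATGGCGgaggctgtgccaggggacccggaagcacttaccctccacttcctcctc
CYCS: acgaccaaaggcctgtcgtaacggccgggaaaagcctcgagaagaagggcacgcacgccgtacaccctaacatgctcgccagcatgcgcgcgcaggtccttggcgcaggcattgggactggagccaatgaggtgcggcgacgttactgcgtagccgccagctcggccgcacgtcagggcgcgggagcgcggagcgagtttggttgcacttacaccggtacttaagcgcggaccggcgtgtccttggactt

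SDHA carried 4 NRF1 matches whose first bases lay 166, 117, 68 and 19 bases before the start, so successive matches were 49 bases apart. NDUFB4, an accessory subunit of complex I, carried matches 159 and 63 bases before the start, and a further match that begins 8 bases before the start and crosses it is not marked. UQCRFS1 carried a match 31 bases before the start and GC boxes at 157 and 98, and ATP5PF carried a YY1 match at 57. CYCS carried no exact match to any of the motifs. Nor did NDUFAF4 and COX7B, which are not shown and rose more with G1 than NDUFB4 (log2 fold changes 0.88 and 0.73 against 0.41). The search took exact letters only, so sites with other letters at a fixed position were not counted. NRF1 and YY1 are transcription factors known to act at many promoters of nuclear mitochondrial genes. Over the genes with a window, 18 of 80 (22.5%) held the NRF1 motif, against 5.78% of 35116 promoters of the same length. Over those that were also tested the share was 19.0% (12 of 63), against 11.4% of 9652 promoters of tested genes. For the YY1 motif the tested members had 9.52% (6 of 63) against 3.92% of tested genes. For the CRE motif they had 6.35% (4 of 63) against 3.24%, so both shares rest on few genes. The ETS motif was near the level of tested genes, at 7.94% against 8.50%, and the GC box was below it, at 57.1% against 70.0%. All 12 tested genes with the NRF1 motif rose with G1 (median log2 fold change 0.42), as did 40 of the 51 without it (median 0.39). For the ETS, YY1, CRE and GC box motifs, 5 of 5, 5 of 6, 3 of 4 and 29 of 36 with the motif rose. Without it, 47 of 58, 47 of 57, 49 of 59 and 23 of 27 did. These matches describe letters in a window and say nothing on whether a factor was bound.

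The counts by complex below are to be read against the shares of all genes called higher, 30.4% with G1, 13.1% with G7 and 23.3% between G1 and G7. Complex I was the largest set, with 38 tested genes of 45. Of these, 30 rose with G1 and 16 with G7. Without control replicate 2, 10 rose with G7, where 10.3% of all genes were higher. Its core subunits carry the flavin and iron-sulfur clusters, and its accessory subunits surround them. Of the 6 core genes tested, 4 rose with G1 and 3 with G7 (medians 0.23 and 0.19), and of the 24 accessory genes, 20 rose with G1 and 9 with G7 (medians 0.45 and 0.14). Between G1 and G7, 17 of the 24 accessory genes were called higher with G1, whereas 0 of the 6 core genes were called by edgeR, DESeq2 or limma-voom and 1 had an unadjusted edgeR p under 0.05. With no low-count filter NDUFS1 and NDUFS3 were called higher with G1 than with G7 (edgeR adjusted p = 0.0325 and 0.00046). The difference between core and accessory genes was itself not tested.

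NDUFS6, an accessory subunit of the NADH-oxidising module, held 57.8, 58.7 and 60.0 CPM in the control libraries, 98.1, 102 and 109 with G1 and 76.3, 73.6 and 79.6 with G7. The 3 groups did not overlap, with G7 between control and G1. Its log2 fold change was 0.81 ± 0.051 with G1 (edgeR adjusted p = 1.82e-10) and 0.38 ± 0.051 with G7 (edgeR adjusted p = 3.72e-05), and 0.43 ± 0.049 between the hairpins (edgeR adjusted p = 1.17e-06). NDUFB6, an accessory subunit of the membrane arm, rested on lower counts, at 5.44, 4.74 and 6.90 CPM in control, 9.31, 11.4 and 8.15 with G1 and 7.55, 8.20 and 6.66 with G7. It rose with G1, by 0.75 ± 0.15 on the log2 scale (edgeR adjusted p = 0.00026), while its G7 libraries overlapped the control ones (0.37 ± 0.15, edgeR adjusted p = 0.0887; 0.0341 without control replicate 3 and 0.0333 without G7 replicate 3). The other accessory genes that rose with G1 lay between 0.22 and 0.63 in log2 fold change. NDUFV3, a small subunit of the NADH-oxidising module, varied widely between libraries. It had 12073, 11301 and 13604 counts in control, 14847, 11548 and 13907 with G1, and 10336, 9482 and 22351 with G7, the last of these from G7 replicate 3, and was not called with either hairpin.

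Among the core subunits, NDUFS3 had the largest change with G1. It held 45.0, 40.7 and 43.7 CPM in control, 57.8, 65.7 and 51.5 with G1 and 55.2, 54.9 and 41.8 with G7, so that G1 lay above control and G7 replicate 3 lay within the control range. Its log2 fold change was 0.44 ± 0.096 with G1 (edgeR adjusted p = 0.000671) and 0.23 ± 0.096 with G7 (edgeR adjusted p = 0.0967; 0.000817 without G7 replicate 3). NDUFS1, which holds iron-sulfur clusters and is the largest subunit of the complex, held 146 ± 9.92 CPM (SD, n = 3) in control, 177 ± 5.72 with G1 and 165 ± 3.55 with G7. It rose by 0.28 ± 0.049 with G1 (edgeR adjusted p = 9e-05) and 0.18 ± 0.049 with G7 (edgeR adjusted p = 0.0136, but 0.0634 without control replicate 3).

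NDUFS8, an iron-sulfur subunit, had the smallest called rise with G1, 0.18 ± 0.056 (edgeR adjusted p = 0.0084; 0.150 with upper quartile scaling and 0.286 with library totals only), and rose by 0.20 ± 0.055 with G7 (edgeR adjusted p = 0.013; 0.0711 without control replicate 1 and 0.0615 without control replicate 2). NDUFV1, which binds NADH and the flavin, held 153, 137 and 156 CPM in control, 157, 164 and 147 with G1 and 173, 163 and 145 with G7, and the groups overlapped. The 95% intervals of its log2 fold changes were -0.07 to 0.20 with G1 and -0.03 to 0.24 with G7, and of the alternatives run only the G7 comparison without G7 replicate 3 passed the test (edgeR adjusted p = 0.0165). NDUFS7, another iron-sulfur subunit, was low, at 4.36 ± 0.201 CPM in control, and its intervals were wide, -0.39 to 0.30 with G1 and -0.25 to 0.41 with G7. The seventh nuclear core gene, NDUFV2, was listed at 0.

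The NDUFAF genes encode complex I assembly factors, which are not part of the finished enzyme. Of the 8, 6 rose with G1 and 4 with G7 (medians 0.45 and 0.33). NDUFAF4 held 11.2, 10.5 and 9.58 CPM in control, 18.1, 21.5 and 17.5 with G1 and 13.9, 14.8 and 12.3 with G7, and the groups did not overlap. Its rise of 0.88 ± 0.10 with G1 (edgeR adjusted p = 7.35e-07) was the largest of complex I, and with G7 it was 0.39 ± 0.11 (edgeR adjusted p = 0.012, but 0.0682 without control replicate 3). NDUFAF8 held 12.1, 11.1 and 11.1 CPM in control, 17.7, 20.3 and 17.8 with G1 and 15.0, 15.6 and 13.3 with G7, again without overlap. It rose by 0.71 ± 0.092 and 0.36 ± 0.093 (edgeR adjusted p = 2.4e-06 and 0.0101).

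NDUFAF5, a methyl transferase-like protein that hydroxylates NDUFS7, rose by 0.52 ± 0.086 and 0.34 ± 0.086 (edgeR adjusted p = 4.27e-05 and 0.00744), and NDUFAF1, a factor of the membrane arm, rose by 0.50 ± 0.11 and 0.42 ± 0.11 (edgeR adjusted p = 0.00058 and 0.00851; 0.0514 with G7 without control replicate 2). For NDUFAF1 the G1 and G7 libraries overlapped and the difference between hairpins was 0.09 ± 0.097 (edgeR adjusted p = 0.497). NDUFAF2 and NDUFAF7 rose with G1, by 0.41 ± 0.11 and 0.37 ± 0.066, and were not called with G7 (0.31 ± 0.11 and 0.18 ± 0.066, edgeR adjusted p = 0.0508 and 0.0607; for NDUFAF2, 0.0369 without control replicate 2 and 0.0294 without G7 replicate 2). NDUFAF3 and NDUFAF6 were not called with either hairpin. Their estimates were -0.12 ± 0.11 and -0.08 ± 0.093 with G1 and -0.19 ± 0.11 and -0.15 ± 0.092 with G7.

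Complex II, succinate dehydrogenase, belongs to both the citric acid cycle and the respiratory chain. SDHA, its flavoprotein, held 208, 195 and 207 CPM in control, 282, 279 and 279 with G1 and 246, 245 and 240.2 with G7. No libraries of different groups overlapped, and G7 lay between control and G1. It rose by 0.46 ± 0.040 with G1 (edgeR adjusted p = 1.37e-08) and by 0.26 ± 0.040 with G7 (edgeR adjusted p = 0.000127). SDHB, the iron-sulfur subunit, held 63.6, 60.4 and 61.0 CPM in control, 81.1, 79.3 and 84.3 with G1 and 73.3, 69.4 and 70.9 with G7, and rose by 0.40 ± 0.048 and 0.21 ± 0.048 (edgeR adjusted p = 9.26e-07 and 0.00424). SDHC, one of the membrane anchors, gave 0.05 ± 0.047 with G1 (edgeR adjusted p = 0.344) and 0.12 ± 0.047 with G7 (edgeR adjusted p = 0.0703), with 95% intervals of -0.05 to 0.15 and 0.02 to 0.22. SDHC was called higher with both hairpins under a length trend offset, which takes out each library's trend of count on gene length (0.14 and 0.16, edgeR adjusted p = 0.0171 and 0.0225), and lower with G1 than with G7 under upper quartile scaling (edgeR adjusted p = 0.0268). The G1 libraries of SDHC overlapped the control ones, at 121, 131 and 117 against 120.2, 120.5 and 116 CPM. SDHD, the other anchor, was listed at 0.

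In complex III, 7 of the 9 tested genes rose with G1 and 6 with G7. All 4 core genes, CYC1, UQCRFS1, UQCRC1 and UQCRC2, rose with both hairpins and were higher with G1 than with G7, with medians of 0.60 with G1 and 0.31 with G7. UQCRFS1, the Rieske iron-sulfur protein whose promoter is shown above, held 56.4, 55.7 and 55.9 CPM in control, 89.5, 91.8 and 94.4 with G1 and 73.1, 71.6 and 66.9 with G7. Its groups did not overlap, and its log2 fold change was 0.71 ± 0.049 with G1 (edgeR adjusted p = 6.14e-10), 0.33 ± 0.049 with G7 (edgeR adjusted p = 0.000101) and 0.38 ± 0.047 between the hairpins (edgeR adjusted p = 2.94e-06). CYC1, cytochrome c1, which hands electrons to cytochrome c, held 74.5, 72.9 and 81.3 CPM in control, 123, 124 and 121 with G1 and 108, 102 and 95.1 with G7. It had the largest called G7 rise of the complex, 0.41 ± 0.053 (edgeR adjusted p = 2.27e-05), beside 0.69 ± 0.053 with G1 (edgeR adjusted p = 3.05e-09).

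UQCRC1 and UQCRC2 are the core proteins of complex III without a redox centre. UQCRC1 rose by 0.51 ± 0.060 with G1 and 0.29 ± 0.060 with G7 (edgeR adjusted p = 8.07e-07 and 0.00188), and UQCRC2 by 0.33 ± 0.042 and 0.21 ± 0.042 (edgeR adjusted p = 2.39e-06 and 0.0012). For UQCRC2 the difference between hairpins, 0.11 ± 0.041 (edgeR adjusted p = 0.0345), was lost without G1 replicate 2 or 3 or G7 replicate 1 or 3 (edgeR adjusted p = 0.0644 to 0.131), under upper quartile scaling (0.301) and with library totals only (0.438), where that of UQCRC1 was lost too (0.0967). Of the 4 accessory genes tested, 3 rose with G1 and 2 with G7. UQCRH, the hinge protein, rose by 0.38 ± 0.057 and 0.25 ± 0.057 (edgeR adjusted p = 1.44e-05 and 0.00428). UQCRQ, a small accessory subunit, rose by 0.48 ± 0.088 with G1 (edgeR adjusted p = 0.000138) and was not called with G7 (0.19 ± 0.089, edgeR adjusted p = 0.141; 0.0203 without G7 replicate 3). UQCRHL, a near copy of UQCRH, had between 4 and 17 counts per library, so its estimates of -0.82 ± 0.37 with G1 and -0.70 ± 0.35 with G7 (edgeR adjusted p = 0.0604 and 0.157) rest on little. Its G1 value passed the test under upper quartile scaling (edgeR adjusted p = 0.0396), library totals only (0.0375) and a fit of those 2 groups alone.

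CYCS encodes cytochrome c, the small soluble protein that shuttles electrons from complex III to complex IV and also takes part in apoptosis once released. CYCS held 84.9, 81.0 and 75.6 CPM in control, 166, 182 and 158 with G1 and 102, 107 and 95.8 with G7. Every G1 library lay above every G7 library, and every G7 library above every control library. With G1 the log2 fold change was 1.07 ± 0.059 (edgeR adjusted p = 2.87e-11), the largest rise of the 78 genes. With G7 the log2 fold change was 0.34 ± 0.060 (edgeR adjusted p = 0.000472), and the difference between hairpins was 0.73 ± 0.057 (edgeR adjusted p = 9.86e-09). The call with G1 held under all 20 alternatives, with values of 0.97 to 1.12. CYCS has 40 pseudogenes named after it in GENCODE 29, and reads that also fit those copies may have been left out or split, so its level is uncertain.

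In complex IV, cytochrome c oxidase, 8 of the 12 tested genes rose with G1 and 4 with G7. The G7 count was 9 without G7 replicate 3, where 14.6% of all genes were higher. It was 2 without control replicate 2 (10.3% of all genes) or without G7 replicate 2 (10.4%), and 2 of 12 is not far from those shares. COX7B, a small membrane subunit, held 96.7, 93.8 and 90.1 CPM in control, 148, 154 and 162 with G1 and 114, 114 and 126 with G7. Its groups did not overlap, and it rose by 0.73 ± 0.051 with G1 (edgeR adjusted p = 8.67e-10) and 0.34 ± 0.051 with G7 (edgeR adjusted p = 0.000129). NDUFA4, long listed under complex I and now assigned to complex IV, held 45.5, 44.4 and 45.9 CPM in control, 65.9, 75.8 and 63.4 with G1 and 53.7, 56.7 and 44.6 with G7, where the library of G7 replicate 3 lay within the control range. It rose by 0.60 ± 0.079 with G1 (edgeR adjusted p = 3.3e-06), and with G7 the estimate was 0.19 ± 0.080 (edgeR adjusted p = 0.105; 0.00261 without G7 replicate 3).

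COX4I1, COX5A and COX5B are nuclear subunits placed around the mitochondrially encoded catalytic core of complex IV. With G1 they rose by 0.33 ± 0.047, 0.30 ± 0.060 and 0.35 ± 0.065 (edgeR adjusted p = 9.92e-06, 0.000318 and 0.00014). With G7 the values were 0.18 ± 0.047, 0.10 ± 0.060 and 0.18 ± 0.065 (edgeR adjusted p = 0.0115, 0.249 and 0.0513). The COX4I1 call was lost without control replicate 2 (edgeR adjusted p = 0.0620) or G7 replicate 2 (0.0527), and COX5A and COX5B passed without G7 replicate 3 (0.0394 and 0.00100), as did COX5B without G1 replicate 2 or 3 (0.0432 and 0.0450). COX6B1, on the intermembrane side of the enzyme, rose by 0.37 ± 0.049 and 0.22 ± 0.049 (edgeR adjusted p = 3.33e-06 and 0.00333). COX6C rose by 0.46 ± 0.074 with G1 (edgeR adjusted p = 3.2e-05), while its G7 value of 0.21 ± 0.074 (edgeR adjusted p = 0.0443) was lost when any of 6 single libraries was left out, control replicates 1, 2 and 3, G1 replicate 1 and G7 replicates 1 and 2 (0.0506 to 0.194), and also by limma-voom, without mitochondrially encoded genes, with the length trend offset and under upper quartile scaling (0.0542 to 0.0810). Across the 12 genes, the median log2 level relative to the control mean was 0.25 and 0.22 in G7 replicates 1 and 2 but 0.00 in G7 replicate 3, and 0.26 to 0.40 in the G1 libraries.

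Several complex IV subunits come in isoforms or paralogs that differ between tissues. Of the tissue-restricted forms, COX4I2, COX6A2, COX7B2 and COX8C were listed at 0 and COX7A1 and NDUFA4L2 had too few counts to test. COX6B2, the testis form of COX6B1, had 0.812 ± 0.0826 CPM in control against 94.8 ± 4.89 for COX6B1, which is 0.213 against 101 CPM per kb of exon. COX6A1, the widely used form, had only 0.564 ± 0.110 CPM in control and 97 counts over all libraries. Its 95% intervals, -0.92 to 1.12 with G1 and -0.66 to 1.27 with G7, were too wide to show a change of the size seen in its neighbours. COX7A2, the form of most tissues, was not called (0.14 ± 0.082 with G1 and 0.07 ± 0.081 with G7), except without G7 replicate 3 (edgeR adjusted p = 0.0287 and 0.0329) and, with G1, with no low-count filter (0.0100) or those 2 groups alone (0.0465). COX7A2L, a related protein that joins complexes III and IV into supercomplexes, held 148, 135 and 141 CPM in control, 137, 136 and 131 with G1 and 135, 145 and 129.9 with G7, and the groups overlapped. Its estimates were -0.07 ± 0.049 and -0.05 ± 0.049, not called, though with G1 it was called lower under upper quartile scaling (-0.16, edgeR adjusted p = 0.00936) and with library totals only (-0.17, edgeR adjusted p = 0.0300).

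In complex V, 13 of the 15 tested genes rose with G1 and 8 with G7, and 1 fell with each. All 5 genes of the F1 head, which holds the catalytic sites, rose with G1 and 3 rose with G7 (medians 0.52 and 0.22). ATP5F1B, the catalytic beta subunit, had the highest level per exon length of the 78 genes, 214 CPM per kb in control. It held 527, 468 and 494 CPM in control, 733, 788 and 676 with G1 and 621, 604 and 506 with G7, so all G1 libraries lay above control while G7 replicate 3 lay within the control range. It rose by 0.56 ± 0.069 with G1 (edgeR adjusted p = 1.34e-06), and the G7 value of 0.22 ± 0.069 (edgeR adjusted p = 0.0293) was lost without control replicate 2 or 3, G1 replicate 1 or G7 replicate 1 or 2 (0.0599 to 0.137) and under upper quartile scaling (0.0550). ATP5F1A, the alpha subunit, showed the same layout, with 309.5, 277 and 292 CPM in control, 430.0, 455 and 399.6 with G1 and 374, 370.2 and 303 with G7. Its log2 fold changes were 0.55 ± 0.068 (edgeR adjusted p = 1.56e-06) and 0.25 ± 0.068 (edgeR adjusted p = 0.0118; 0.0575 to 0.0631 without control replicate 2 or G7 replicate 1 or 2). ATP5F1E, the epsilon subunit, rose by 0.52 ± 0.056 and 0.25 ± 0.056 (edgeR adjusted p = 2.83e-07 and 0.00318).

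ATP5PF, coupling factor 6 of the peripheral stalk that holds the head still, had the largest rise of complex V with both hairpins. It held 31.7, 32.6 and 34.0 CPM in control, 55.0, 57.0 and 55.9 with G1 and 39.9, 41.9 and 47.1 with G7, without overlap between groups. The log2 fold change was 0.77 ± 0.064 with G1 (edgeR adjusted p = 7.55e-09) and 0.39 ± 0.064 with G7 (edgeR adjusted p = 0.000265). Of the other stalk genes, ATP5PB rose with both hairpins, and ATP5PD and ATP5PO were listed at 0. All 4 tested membrane accessory genes, some of which help the enzyme form dimers, rose with G1 and 2 of them with G7.

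The genes of the c ring, the rotor that protons turn, encode the same mature protein from different loci. ATP5MC3 held 114, 95.3 and 113 CPM in control, 181, 197 and 169 with G1 and 149, 149.5 and 123 with G7, without overlap. Its rises were 0.76 ± 0.077 with G1 (edgeR adjusted p = 1.07e-07) and 0.38 ± 0.077 with G7 (edgeR adjusted p = 0.00146). ATP5MC2 held 98.2, 92.4 and 104 CPM in control, 94.7, 101 and 94.7 with G1 and 109, 103 and 105 with G7, where G1 and control overlapped. Its estimates were -0.02 ± 0.050 and 0.11 ± 0.050, not called (edgeR adjusted p = 0.773 and 0.141; 0.0478 with G7 without control replicate 3), with 95% intervals of -0.12 to 0.09 and 0.00 to 0.21 that do not reach the rises of ATP5MC3. It was the only gene of the 78 called lower with G1 than with G7, with a difference of -0.12 ± 0.049 (edgeR adjusted p = 0.0489), and that call was lost under 11 of 20 alternatives, among them leaving out control replicate 1, G1 replicate 1 or 3 or G7 replicate 1 or 2 (edgeR adjusted p = 0.0630 to 0.242). The third locus, ATP5MC1, was listed at 0.

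ATP5IF1, the inhibitor that blocks ATP hydrolysis when the gradient fails, rose with G1 by 0.25 ± 0.072 (edgeR adjusted p = 0.007; 0.0698 with upper quartile scaling and 0.0692 with library totals only) and gave 0.05 ± 0.072 with G7 (edgeR adjusted p = 0.695). ATP5S, coupling factor B, which is not a subunit of the isolated enzyme, was the only gene of the 78 that fell. ATP5S held 20.3, 19.2 and 19.6 CPM in control, 14.3, 16.3 and 14.8 with G1 and 16.4, 16.8 and 17.5 with G7, so both hairpin groups lay below control. The log2 fold change was -0.37 ± 0.077 with G1 (edgeR adjusted p = 0.000415) and -0.22 ± 0.075 with G7 (edgeR adjusted p = 0.0392). The G7 call was lost when any control replicate, G1 replicate 3, G7 replicate 1 or G7 replicate 2 was left out (edgeR adjusted p = 0.0509 to 0.126), with no low-count filter (0.0725), with the length trend offset (0.0723) and by DESeq2 (DESeq2 adjusted p = 0.121).

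**Figure D2:**
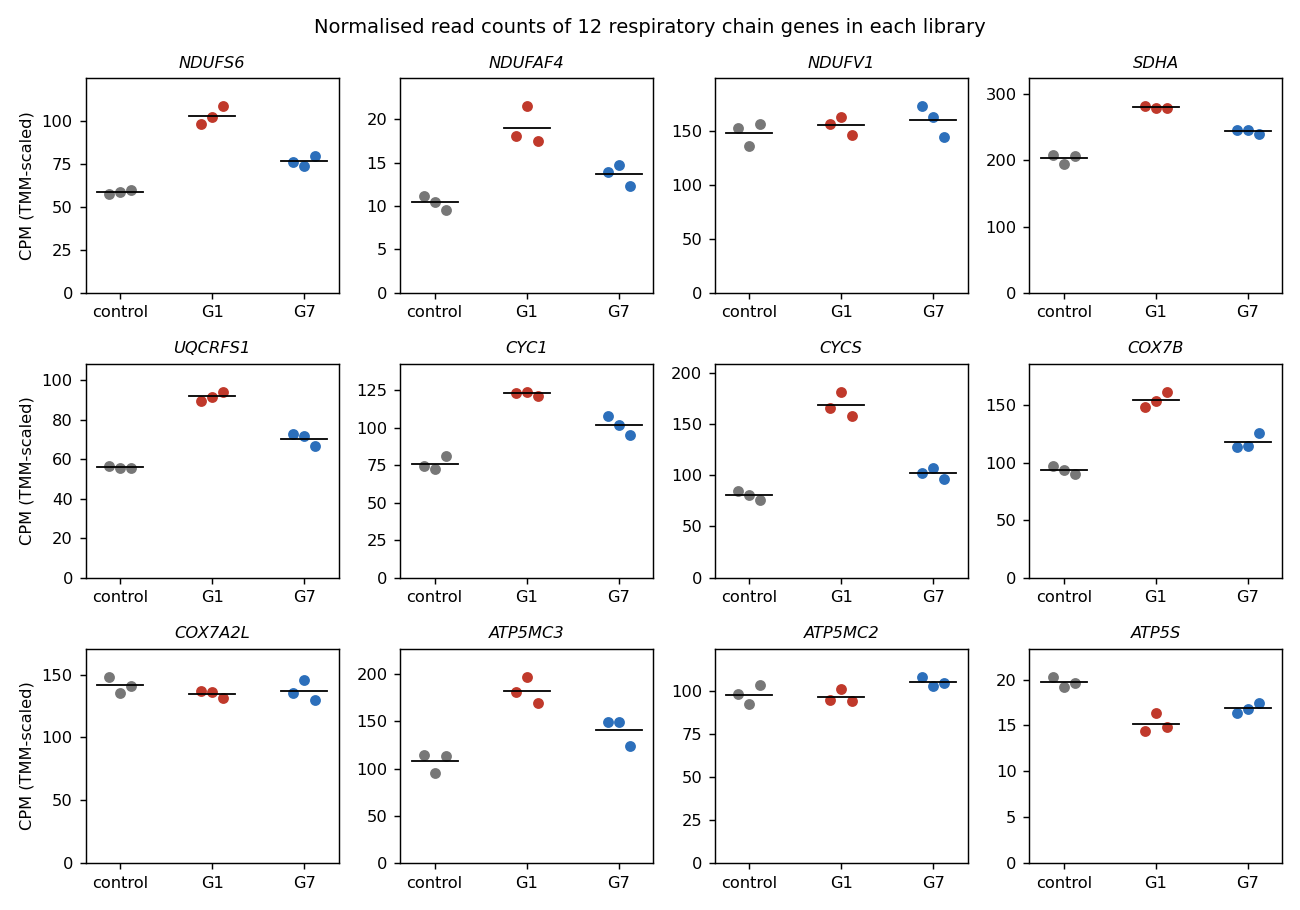
TMM-scaled CPM of 12 genes in each of the 9 libraries, on axes that start at 0, with points for libraries in the order of their replicate numbers and lines for the group means (n = 3). The 3 groups are separate for NDUFS6, UQCRFS1, CYCS and ATP5MC3, overlap for NDUFV1 and COX7A2L, and ATP5S lies below control with both hairpins.

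Levels per exon length spanned a wide range within each complex. Among the tested genes the control level ran from 0.213 CPM per kb for COX6B2 to 214 for ATP5F1B. Complex I itself ran from 0.579 CPM per kb for NDUFS7 to 172 for NDUFS5, an accessory subunit.

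**Figure D3:**
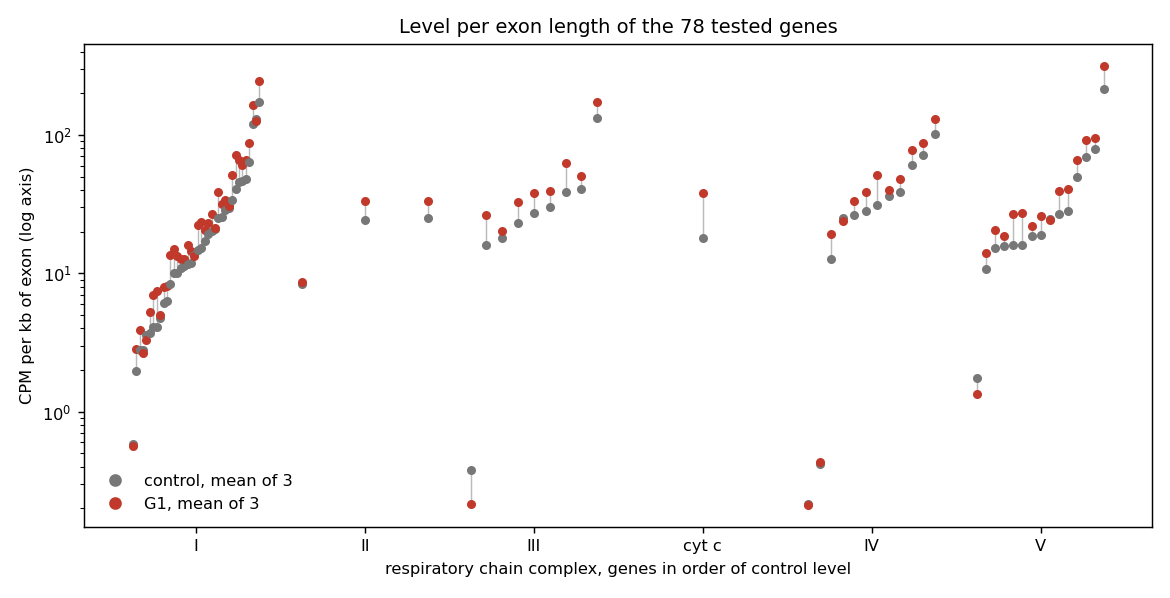
Mean CPM per kb of exon in control (grey) and G1 (red) for the 78 tested genes, by complex and in order of the control level, on a log axis, with a line joining the values of each gene. The G1 points lie above the control points for most genes. They lie below them for 10 of the 78, among them many of the genes at the lowest levels. Those low genes are COX6B2, UQCRHL, NDUFS7, ATP5S, NDUFAF6 and NDUFAF3.

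The mitochondrially encoded partners of these subunits were counted in the same fit. None of the 13 was called with G1, with G7 or between the hairpins by edgeR, where 0 had an unadjusted p under 0.05, nor by DESeq2 or limma-voom, and their median log2 fold changes were 0.02, 0.03 and -0.00. In the comparisons that include G7, that rested on G7 replicate 3. Without that library 6 of the 13 fell with G7 and 8 were higher with G1 than with G7 by edgeR, with medians of -0.20 and 0.22. MT-ND6 is a membrane subunit of complex I coded on the opposite strand of mitochondrial DNA from the other 12, and the strand setting of the counting is unknown. It went from 0.03 ± 0.15 with G7 in all libraries (edgeR adjusted p = 0.908) to -0.26 without G7 replicate 3 (edgeR adjusted p = 0.0294). Under the length trend offset MT-ND4L, which is among the 13, was called higher with G1. With no filter on low counts edgeR called 5 of the 13 higher with G1, 3 higher and 1 lower with G7, and 2 higher with G1 than with G7. Their spread was wide, since their median level relative to the control mean ran from -0.12 to 0.18 in the control libraries, from -0.12 to 0.22 with G1 and from -0.21 to 0.41 with G7, the last in G7 replicate 3. MT-CO1, a catalytic subunit of complex IV, held 20449.8 ± 1765 CPM (SD, n = 3) in control, 21075 ± 2445 with G1 and 22242 ± 4438 with G7. The 95% intervals of its log2 fold change were -0.18 to 0.27 with G1 and -0.11 to 0.35 with G7. The nuclear genes of complex I had a narrower spread, since their median ran from -0.04 to 0.04 in the control libraries, from 0.16 to 0.21 with G7 and from 0.38 to 0.43 with G1.

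**Figure D4:**
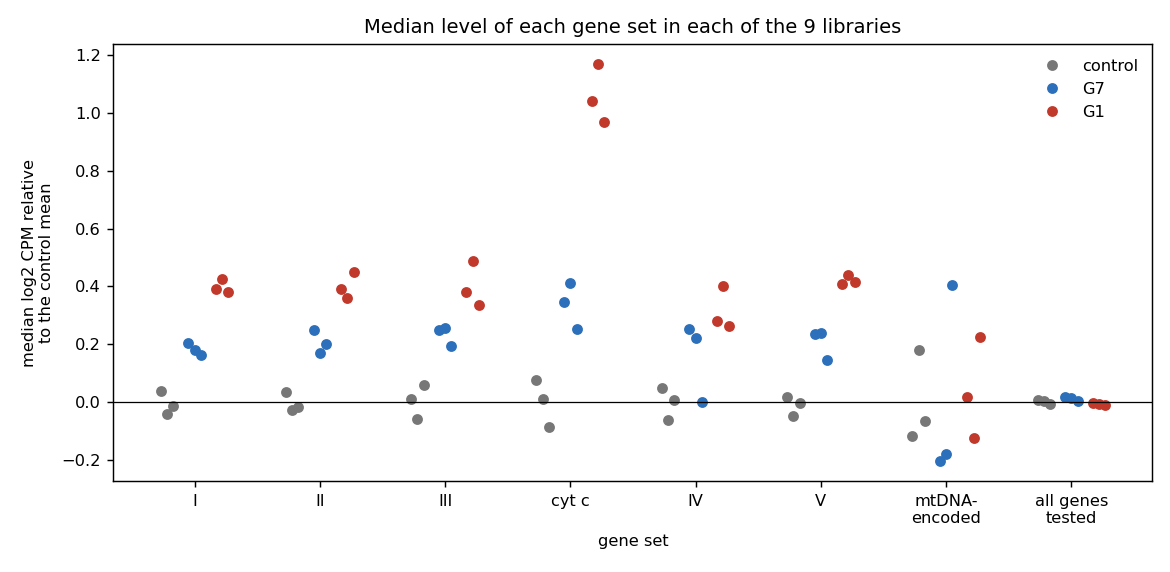
Median log2 CPM relative to the control mean for the tested genes of each complex, for the 13 mitochondrially encoded subunits and for all genes tested, in each control (grey), G7 (blue) and G1 (red) library. In complexes I, II, III and V the G7 libraries lie between control and G1, in complex IV G7 replicate 3 lies with the control libraries, and the mitochondrially encoded set overlaps between groups, with G7 replicate 3 highest.

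Genes that work beside the chain were counted in the same fit, and their counts are to be read against the 30.4% of all genes called higher with G1 and the 13.1% with G7. Of 13 citric acid cycle genes, which supply NADH and succinate, 11 rose with G1 and 10 with G7, with medians of 0.31 and 0.21. FH, fumarate hydratase, which acts on the product of complex II, held 97.2 ± 5.19 CPM (SD, n = 3) in control, 176 ± 11.3 with G1 and 122 ± 11.2 with G7, a rise of 0.86 ± 0.063 and 0.32 ± 0.064 (edgeR adjusted p = 1.66e-09 and 0.00123). SUCLG1, a subunit of succinyl-CoA ligase, which makes succinate, rose by 0.51 ± 0.049 and 0.30 ± 0.049 (edgeR adjusted p = 4.63e-08 and 0.000226). Of 7 tested electron donors to ubiquinone outside complexes I and II, 4 rose and 1 fell with G1 and 3 rose with G7. GPD2, the mitochondrial glycerol phosphate dehydrogenase, rose by 0.52 ± 0.047 and 0.28 ± 0.047 (edgeR adjusted p = 2.77e-08 and 0.000354).

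Carriers of ADP, ATP and phosphate and outer membrane channels rose in 6 of 7 cases with G1 and 2 of 7 with G7 (4 without G7 replicate 3). VDAC1, the main outer membrane channel, rose by 0.53 ± 0.039 and 0.25 ± 0.039 (edgeR adjusted p = 1.37e-09 and 0.000182). Ubiquinone synthesis was mixed, with 5 of 11 genes higher and 1 lower with G1 and 1 higher with G7. Without G1 replicate 3 the 5 became 3, and without G7 replicate 3 the 1 became 2. Its shares higher were 45.5% with G1 and 9.09% with G7, the latter below that of all genes. PDSS1, which starts the ubiquinone side chain, rose by 0.98 ± 0.12 with G1 (edgeR adjusted p = 1.55e-06), whereas COQ8B, a kinase-like protein of that pathway, fell, with a log2 fold change of -0.47 ± 0.085 (edgeR adjusted p = 0.0001). Assembly factors outside the name rule were mixed too, with 17 higher and 7 lower of 40 with G1 (median 0.10) and 4 and 1 with G7 (8 and 1 without G7 replicate 3), which is 42.5% higher with G1 and 10.0% with G7. TMEM70, an assembly factor of ATP synthase, rose by 0.83 ± 0.10 with G1 (edgeR adjusted p = 1.33e-06) and gave 0.20 ± 0.11 with G7 (edgeR adjusted p = 0.203). Of 11 transcriptional regulators of mitochondrial biogenesis, 8 rose with G1 and 1 with G7 (2 without G7 replicate 3), which is 72.7% and 9.09%. TFAM, which packages and transcribes mitochondrial DNA, rose by 0.42 ± 0.052 and 0.19 ± 0.053 (edgeR adjusted p = 1.63e-06 and 0.0118; with G7, 0.0580 without control replicate 3 and 0.0664 without G7 replicate 2).

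Overlapping genes and near copies can take reads from a gene, so the counts were repeated over the 30 tested genes with no same-strand exon overlap and no pseudogene named after them. Of these, 22 (73.3%) rose and 1 fell with G1 (median 0.38), beside 81.2% that rose among the other 48 tested genes (median 0.41). With G7, 10 (33.3%) rose and 1 fell (median 0.19), beside 56.2% of the other 48 (median 0.20). Upper quartile scaling and library totals alone lowered the median of all genes with G1 from -0.01 to -0.10 and -0.11. They lowered that of the respiratory chain genes from 0.40 to 0.31 and 0.30. A change of scaling shifts all genes of a library alike, so the distance between these medians had to stay nearly the same and tests nothing. Under those scalings 23.1% and 21.0% of all genes were called higher with G1 and 36.3% and 36.2% lower, and 54 and 52 of the 78 respiratory chain genes were higher and 3 lower under each. With library totals only, the G7 calls of NDUFS1, NDUFS8, NDUFAF4, NDUFAF8, UQCRH, COX4I1, COX6C, ATP5F1A, ATP5F1B, ATP5F1E and TFAM were lost (edgeR adjusted p = 0.0561 to 0.238). With no low-count filter, NDUFS3, NDUFB6, NDUFAF2, UQCRQ, NDUFA4 and COX5B were called higher with G7 (edgeR adjusted p = 0.00424 to 0.0334).

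**Figure D5:**
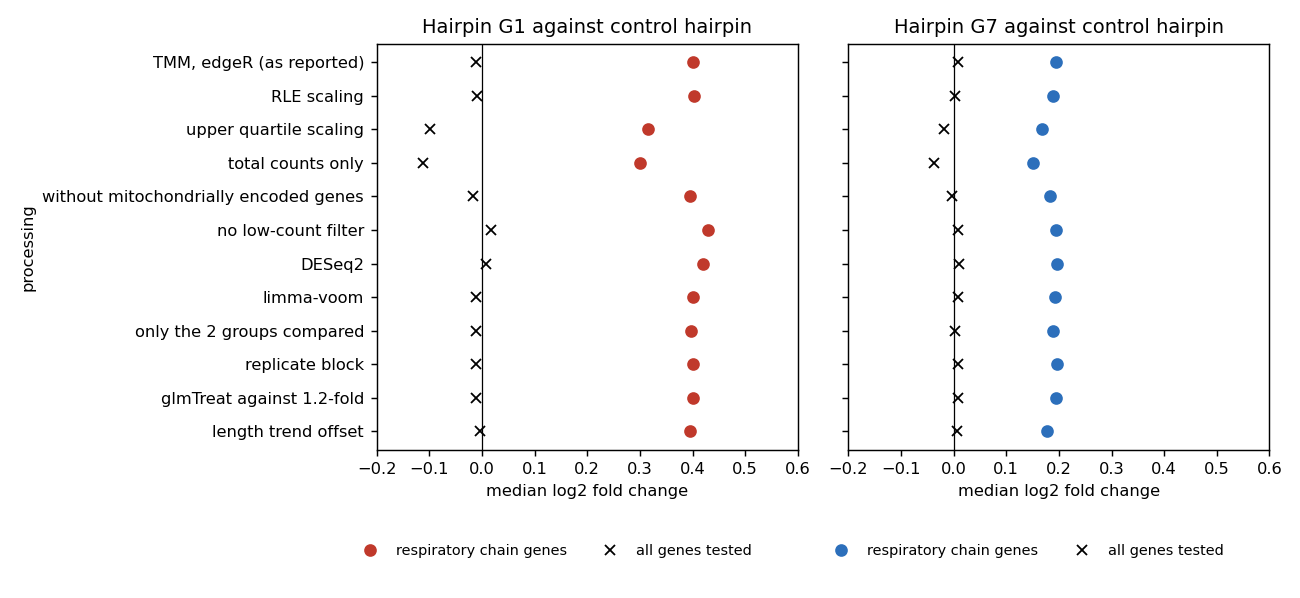
Median log2 fold change against control of the respiratory chain genes (filled points) and of all genes tested (crosses), under each way of processing that leaves out no single library, for G1 (left) and G7 (right). The points lie at 0.30 to 0.43 with G1 and at 0.15 to 0.20 with G7, to the right of the crosses in every line. In the lines that change only the scaling, points and crosses shift together by construction.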

How the data were processed

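Poly-A selected, strand-specific (dUTP) RNA libraries were measured in 9 samples of HCC827 cells, 3 each for the control hairpin and the CBX5 hairpins G1 and G7, per the labels' protocols. The values are raw read counts per gene, deposited by the authors. TopHat2 2.1.0, HTSeq 0.6.0 and build hg38/GRCh38 are named in the submitters' processing notes, while the sources used here do not give the annotation, the strand setting or any filter. Library totals of 12701561 to 22372353 counts set the depth, and counting intervals and floors (3 counts) cover counting error only. The design text calls the samples biological replicates but names no separate cultures, so p-values then measure only the spread between these libraries. No value column was left unmapped.

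Gene types and exon lengths came from GENCODE 29, which held 57055 of the 60675 genes (the others took 0.025% of the counts). edgeR 4.0.16 in R 4.3.3 with limma 3.58.1 fitted all 9 libraries by group after filterByExpr and TMM scaling, and a quasi-likelihood test compared groups over 13264 genes, with Benjamini-Hochberg adjustment and a threshold of 0.05. The script was tested on simulated counts with known changes. CPM per kb divides by exon-union length. A library's log2 level relative to the control mean used log2(CPM + 0.5). The 95% intervals come from the same fit. DESeq2 1.42.0, limma-voom, other scalings, filters, designs and leaving out each library were alternatives.

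The genes and lists were chosen with earlier results of these data known. Named genes were core subunits, isoform sets, assembly factors, untested genes, up to 4 called genes of at least 2 CPM per complex, hairpin and direction with the largest change, and up to 4 genes of smallest p per outside list. NDUFV3, NDUFB4, ATP5PB and the highest and lowest levels per length were singled out after their values were seen. An item of the named genes is not reported here.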

Additional observations from a re-analysis of the deposited data

How the results depend on the processing

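With G1, the count of respiratory chain genes that were higher was 61 and stayed within 1.5 times of that under all 20 alternatives. It ran from 57 to 63 when single libraries were left out. With G7 the count was 37, ranging from 26 (without control replicate 2) to 46 (without G7 replicate 3). It was 17 with library totals only and 0 against a 1.2-fold change, where 7.10% and 1.27% of all genes were higher. For G1 against G7 the count was 46, ranging from 34 (without G1 replicate 2) to 48. It was 29 with library totals only and 10 against a 1.2-fold change, where 16.3% and 7.22% of all genes were higher. The counts of lower genes were 1 in each comparison, so they moved easily. Leaving out single libraries gave 1 to 2 with G1, 0 to 2 with G7 and 0 to 3 between the hairpins. With G1 the count of lower genes was 3 under upper quartile scaling and with library totals only, 2 with no low-count filter, by DESeq2 and with those 2 groups alone, and 0 against a 1.2-fold change. With G7 it was 0 by DESeq2, against a 1.2-fold change and with the length trend offset. Between the hairpins it was 5 under upper quartile scaling, 2 with library totals only, and 0 under RLE scaling, without mitochondrially encoded genes, by DESeq2 and against a 1.2-fold change. The cause was not tested.

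Replicate numbers are shared between groups. Deviations of same-numbered libraries correlated at -0.0763 to 0.199, and those of differently numbered libraries at -0.191 to 0.186. Between G1 and G7 the same-numbered values were 0.0322, 0.141 and 0.199, and the others ran from -0.191 to 0.0782. Between control and either hairpin the same-numbered values ran from -0.0763 to 0.0532. Whether the numbers mark pairs cannot be told from these values. With a replicate block, 62 genes were higher and 1 lower with G1, 37 and 1 with G7, and 51 and 0 between the hairpins. Of the named genes, MT-ND6 changed direction with a call, from 0.03 with G7 to -0.26 without G7 replicate 3, the lowest of a range that reached 0.17 without G7 replicate 1, and the cause was not tested. Upper quartile scaling called 17.7% of all genes higher and 28.3% lower between the hairpins, and library totals only called 16.3% and 25.4%. COX6A1, NDUFS7 and UQCRHL had low counts and were not called against control in the main fit. UQCRHL did pass the test with G1 under upper quartile scaling, with library totals only and with those 2 groups alone. Another gene on the same strand overlapped 13% of the exon bases of COX6A1, which also has 2 pseudogenes named after it. Whether depth or the assigning of reads kept these counts low was not tested. The 23 untested genes had too few counts to test, and 17 of them were listed at 0 in all libraries. The reason for those zeros was not tested.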
